A study of Homo sapiens with 9 samples.

Results

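The genes described here encode components of the tight junction. They are *CLDN1*, *CLDN4*, *CLDN7* and *CLDN12* (claudins), *OCLN* (occludin), *F11R* (junctional adhesion molecule A), *TJP1* and *TJP3* (zonula occludens scaffolds) and *CGN* (cingulin), given as a list of names and not picked by a threshold. They are 9 of the 27860 genes whose FPKM (fragment counts scaled to library size and transcript length) could be summed over RefSeq transcripts, and all 9 passed the filter of a mean of at least 1 FPKM that left 12509 genes to test. The data are RNA-seq of DU145, an established human prostate cancer line. Its 3 groups of 3 libraries expressed a scrambled shRNA (scramble), an shRNA against *FZD6* (shRNA1) or another shRNA against *FZD6* (shRNA2). All groups carried the label WT for genotype, so the only labelled difference was the hairpin, and no dose or time was given. The study cloned its hairpins into lentiviral vectors, and the sources used here do not say whether the cells were pools or clones. The labels call the libraries triplicates without saying that they came from separate cultures, so the spread between them may be technical.

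Tight junctions seal the space between epithelial cells near their apical surface. Claudins and occludin span the membrane and meet their counterparts on the next cell, and claudins set which ions pass. Junctional adhesion molecules bind across the same gap. Inside the cell, the zonula occludens proteins link these membrane proteins to actin, and cingulin binds to them and to actomyosin. FZD6 is a frizzled receptor for Wnt ligands that is known for its part in noncanonical signaling and planar cell polarity.

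*FZD6* itself, the target of the hairpins, had 20.5 ± 0.441 FPKM (mean ± SD, n = 3) in scramble, 9.83 ± 0.376 with shRNA1 and 8.11 ± 0.598 with shRNA2, so the libraries carried the knockdown that their labels name. Depth, estimated from the confidence bounds in the tables, was 32.6 to 40.8 M fragments per library. Of the epithelial markers *KRT8*, *KRT18*, *KRT19*, *EPCAM* and *CDH1*, 5 of 5 had a mean of at least 1 FPKM, and their summed level was 666 to 692 FPKM in scramble and 665 to 728 in the knockdown libraries. Among them *CDH1* fell (log2 fold change −0.28, adjusted p = 0.00935, limma) while *EPCAM* rose (0.26, adjusted p = 0.014), and *KRT19* rose (0.15, adjusted p = 0.00462). The part of these shifts in the changes of the tight junction genes was not tested. Marker sums reached at most 0.491 FPKM for fibroblasts, 0.0943 for endothelial cells and 1.2 for leukocytes, with *PTPRC* and *CD3E* listed at 0 in every library. Of 3 neuroendocrine markers, *ENO2* alone was above 1 FPKM, and the list summed to 16.1 to 17.9 FPKM in scramble and 15.4 to 18 in the knockdown libraries.

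The start regions of *TJP3* and *CGN*, the scaffold genes with the largest log2 fold changes given below, are shown for their sequence. Both are the 250 bases upstream of a transcript start on the plus strand, from RefSeq (GRCh38.p14), which gives the same starts as the deposited tables. The *TJP3* region is chr19:3721487-3721736 and the *CGN* region is chr1:151511137-151511386. Capitals mark matches to the E-box bound by repressors of epithelial genes of the SNAI and ZEB families (CACCTG, or CAGGTG on the other strand) and to the GC box (GGGCGG, or CCGCCC).
TJP3: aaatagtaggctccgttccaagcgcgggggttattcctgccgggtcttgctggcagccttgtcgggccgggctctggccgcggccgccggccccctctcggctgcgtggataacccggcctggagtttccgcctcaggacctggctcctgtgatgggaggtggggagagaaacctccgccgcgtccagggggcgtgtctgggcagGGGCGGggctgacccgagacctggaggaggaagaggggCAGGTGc
CGN: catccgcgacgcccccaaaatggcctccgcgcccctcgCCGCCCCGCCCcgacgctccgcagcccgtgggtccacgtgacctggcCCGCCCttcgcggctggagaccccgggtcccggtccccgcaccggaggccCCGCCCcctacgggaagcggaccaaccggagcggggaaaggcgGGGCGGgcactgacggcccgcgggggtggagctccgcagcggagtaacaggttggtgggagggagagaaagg

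The *TJP3* region held 1 E-box, which begins 7 bases before the start, and 1 GC box. This region belongs to the downstream start, whose form NM_001267561 made up 24.4% of *TJP3* in scramble. Its log2 fold change with knockdown was −0.02 (adjusted p = 0.984, limma). The region of the upstream start, at base 3708384, held 0 E-boxes and 1 GC box. Its form NM_001267560 made up 75.6% and had a log2 fold change of −0.43 (adjusted p = 0.143). The *CGN* region held 5 GC boxes, of which the first 2 overlap, and no E-box. The RefSeq table has a start region for 8 of the 9 genes, 14 regions in all, and *F11R* has none in it. An E-box lay in 5 of these 14 regions, from 4 genes, beside 17.5% of all 35116 regions of the same length. A GC box lay in 10 of 14, from 7 genes, beside 42.6% of all regions. These matches describe the letters of the sequence and do not show that a factor binds there.

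In cells expressing the scrambled shRNA, *TJP1* and *F11R* had the highest levels of the 9 genes, at 35.8 ± 1.39 and 35.0 ± 0.425 FPKM (n = 3), and their libraries overlapped. *CLDN4* followed at 27.2 ± 0.403. *CLDN1* (14 ± 0.611) and *CLDN12* (13.7 ± 0.558) overlapped with each other, as did *CGN* (4.95 ± 0.345) and *TJP3* (4.81 ± 0.104). *OCLN* at 2.45 ± 0.0803 and *CLDN7* at 2.09 ± 0.168 were the lowest. FPKM is a level per transcript length, so these values can be set beside each other. The place of *TJP1* depends on how its entries are summed, since the alternate contig repeats its locus: the 9 entries on chromosome 15 alone gave 18.0 ± 0.673 FPKM in scramble, below *CLDN4*. The level of *OCLN* is uncertain because *OCLNP1*, a partial copy of the gene, can take up its reads and was listed at 9.28 ± 0.564 FPKM in scramble.

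**Figure D1:**
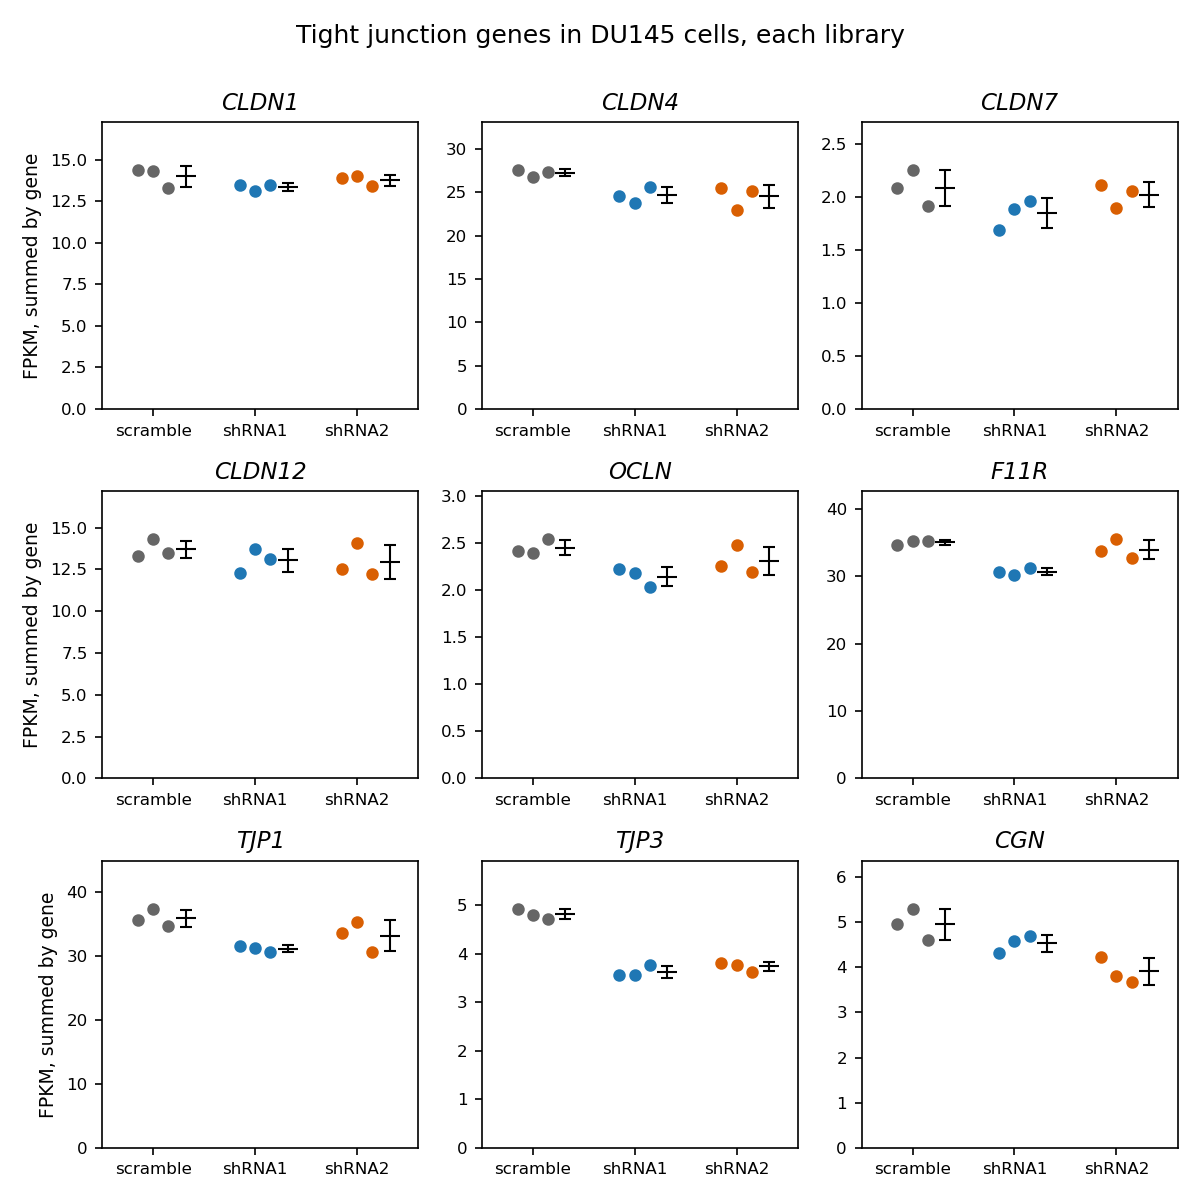
Level of each tight junction gene in every library, in FPKM summed by gene on an axis from 0, for scramble, shRNA1 and shRNA2 (3 points each), with the mean and SD of the group as a black bar to the right of its points. The 6 knockdown points of TJP3 lie between 3.55 and 3.81 FPKM, under the scramble points at 4.71 to 4.92, and those of CLDN4 also lie under scramble.

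Comparing knockdown (6 libraries) with scramble (3 libraries) asked whether lowered *FZD6* RNA was accompanied by a change in these genes. *TJP3* and *CLDN4* fell, and the other 7 did not pass the test. Mean FPKM of *TJP3* changed by −23.5% and that of *CLDN4* by −9.61%. In bulk RNA, fewer cells with a transcript and less of it per cell cannot be told apart. Of the 9 genes, 2 were called lower at an adjusted p under 0.05, beside 7.23% of all 12509 tested genes called lower and 21.6% called in either direction. The background depends on the scaling: of all genes called, 66.5% were higher with knockdown, 50.7% after quantile normalization and 53.9% with the trend on transcript length removed, while each of the 9 genes that was called was lower under these scalings. The log2 fold change was negative for 9 of 9 genes, with a median of −0.12, while 41.8% of all tested genes were lower and their median was 0.03. Adjusted p-values here and below are from limma with Benjamini-Hochberg adjustment over all tested genes, and fold changes are of log2(FPKM + 1), which understates the change of genes at low FPKM.

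Among the membrane proteins, *CLDN4* (chromosome 7, 73830863 to 73832693, hg38), a claudin that tightens the barrier to sodium, had 27.6, 26.8 and 27.3 FPKM in scramble, 24.6, 23.8 and 25.6 with shRNA1, and 25.5, 23.0 and 25.1 with shRNA2. Every knockdown library was below every scramble library. The log2 fold change was −0.14 (SE 0.036, adjusted p = 0.0242). Leaving out scramble replicate 1, 2 or 3 lost the call, with an adjusted p of 0.0945, 0.0656 or 0.0768. The log2 fold change in these fits was −0.13, −0.15 or −0.14. Calls over all tested genes also dropped in them, from 2703 to 1372, 1231 or 1681. By hairpin the log2 fold change was −0.14 with shRNA1 (adjusted p = 0.0577) and −0.15 with shRNA2 (adjusted p = 0.0379), and the difference between the hairpins was −0.01 (95% interval −0.11 to 0.09).

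*CLDN1* (chromosome 3, 190305712 to 190322446), a claudin needed for the barrier of the epidermis, had 14.4, 14.3 and 13.3 FPKM in scramble, 13.5, 13.1 and 13.5 with shRNA1, and 13.9, 14 and 13.4 with shRNA2. The groups overlapped, and 1 of 6 knockdown libraries was below the lowest scramble library. Its log2 fold change of −0.04 (95% interval −0.12 to 0.03, adjusted p = 0.361) was the smallest in size of the 9 genes.

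*CLDN12* (chromosome 7, 90403461 to 90415954), a claudin that lacks the usual C-terminal motif for binding PDZ scaffolds, had 13.3, 14.3 and 13.5 FPKM in scramble, 12.3, 13.7 and 13.1 with shRNA1, and 12.5, 14.1 and 12.2 with shRNA2. In each group replicate 2 was the highest, and the groups overlapped. The log2 fold change was −0.07 (95% interval −0.19 to 0.04, adjusted p = 0.332).

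*CLDN7* (chromosome 17, 7259903 to 7263193), a claudin also found along the lateral membrane, had 2.09, 2.26 and 1.92 FPKM in scramble, 1.69, 1.89 and 1.97 with shRNA1, and 2.12, 1.90 and 2.06 with shRNA2. The shRNA2 libraries lay within or just below the range of scramble. Its log2 fold change of −0.07 (95% interval −0.21 to 0.06, adjusted p = 0.418) came from an estimated 80 to 113 fragments per library, the fewest of the 9 genes, and a change of this size was not detectable here.

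*OCLN* (chromosome 5, 69492547 to 69558104), which helps regulate the junction rather than form its strands, had 2.42, 2.39 and 2.54 FPKM in scramble, 2.22, 2.18 and 2.03 with shRNA1, and 2.26, 2.48 and 2.19 with shRNA2. All shRNA1 libraries were below scramble, and shRNA2 replicate 2 was within its range. The log2 fold change was −0.10 (95% interval −0.21 to 0.01, adjusted p = 0.175). The partial copy *OCLNP1* had 8.63 to 9.66 FPKM in scramble and 7.57 to 9.98 in the knockdown libraries, with a log2 fold change of −0.06 (adjusted p = 0.684).

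*F11R* (chromosome 1, 160995211 to 161021152), an immunoglobulin-like adhesion protein, had 34.6, 35.2 and 35.3 FPKM in scramble, 30.6, 30.2 and 31.2 with shRNA1, and 33.7, 35.5 and 32.7 with shRNA2. The shRNA1 libraries were all below scramble, whereas shRNA2 replicate 2 was above every scramble library. Over both hairpins the log2 fold change was −0.12 (SE 0.049, adjusted p = 0.127).

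Among the scaffolds, *TJP3* (chromosome 19, 3708384 to 3750813), which encodes ZO-3, the zonula occludens protein restricted to epithelia, had 4.92, 4.8 and 4.71 FPKM in scramble, 3.55, 3.56 and 3.77 with shRNA1, and 3.81, 3.77 and 3.62 with shRNA2. No knockdown library reached the scramble range, and the gap between the groups was wider than the range within either. The log2 fold change was −0.31 (SE 0.031, adjusted p = 8.62e-04), the largest in size of the 9 genes. It stayed under the threshold in 20 of 20 alternative fits, with adjusted p-values from 0.000803 to 0.00913. An estimated 402 to 613 fragments per library lie behind these values.

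*TJP1* (chromosome 15, 29699367 to 29969049), which encodes ZO-1, had 35.5, 37.3 and 34.6 FPKM in scramble, 31.5, 31.2 and 30.5 with shRNA1, and 33.5, 35.3 and 30.5 with shRNA2. All shRNA1 libraries were below scramble, and shRNA2 replicate 2 was within its range. The log2 fold change was −0.15 (SE 0.049, adjusted p = 0.0549). Without shRNA2 replicate 2 it was −0.18 (adjusted p = 0.0112), and the adjusted p over the 21 alternatives ran from 0.0112 to 0.238. Counting only entries on chromosome 15 left it at −0.15 (adjusted p = 0.0541).

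*CGN* (chromosome 1, 151511387 to 151538691) had 4.96, 5.29 and 4.6 FPKM in scramble, 4.31, 4.58 and 4.68 with shRNA1, and 4.23, 3.81 and 3.67 with shRNA2. The shRNA2 libraries were all below the other groups, while shRNA1 replicate 3 lay within scramble. Over both hairpins the log2 fold change was −0.19 (SE 0.070, adjusted p = 0.0826).

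Counted by library, the knockdown and scramble groups did not overlap for 2 of 9 genes, *TJP3* and *CLDN4*. The same held for 25.9% of all tested genes, and for 9.46% with knockdown lower, so for non-overlap in either direction the 9 genes were near the background. For *TJP1*, *OCLN*, *F11R* and *CGN*, 5 of 6 knockdown libraries were below the lowest scramble library. The share of all tested genes with such a count was not determined, so it cannot be set against the background. None of these genes was called in knockdown against scramble.

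**Figure D2:**
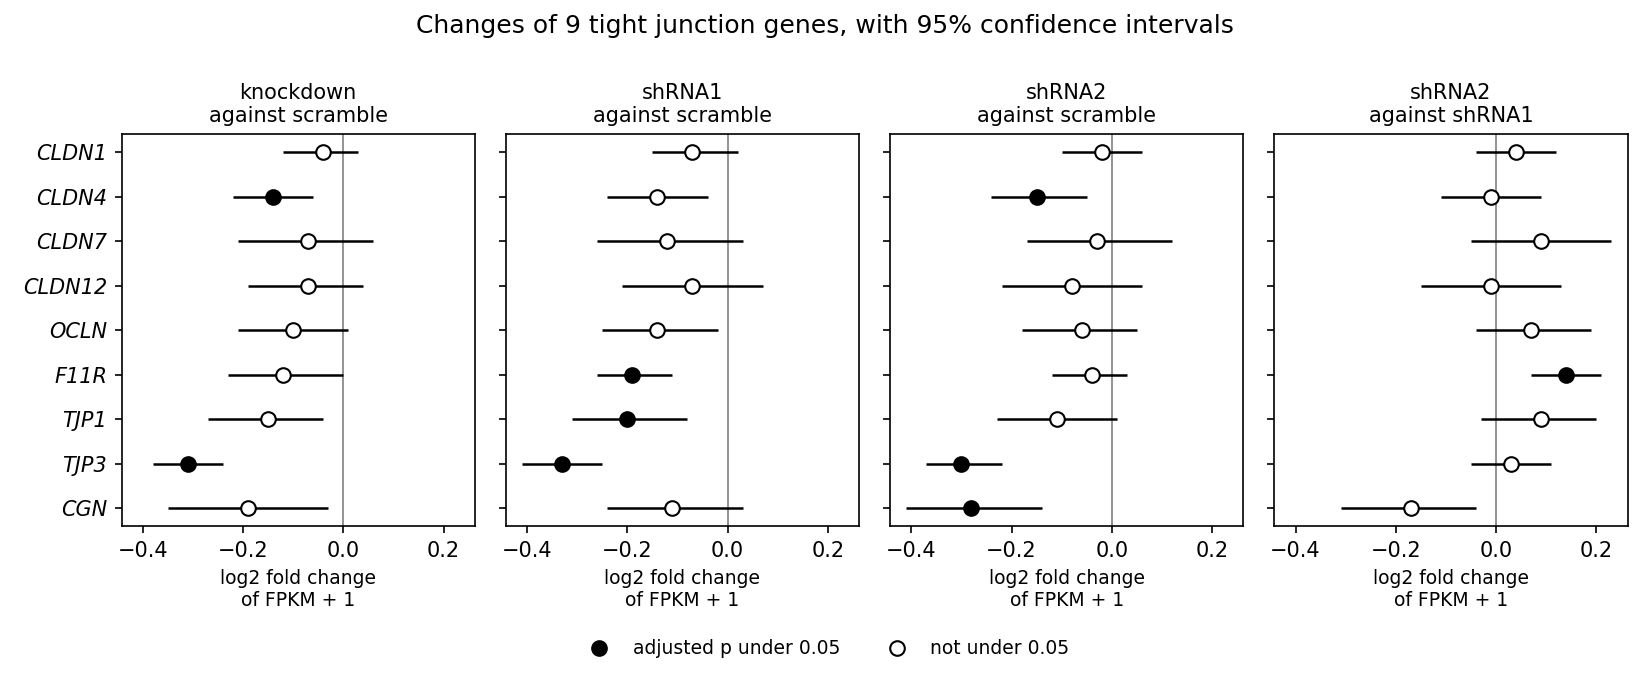
Log2 fold change of FPKM + 1 for each tight junction gene (points) with its 95% confidence interval (lines) in the 4 comparisons, filled where the adjusted p was under 0.05 by limma. TJP3 is filled in each comparison with scramble, near −0.3. CLDN4 is also filled in knockdown against scramble, F11R and TJP1 with shRNA1, and CLDN4 and CGN with shRNA2. Between the hairpins, F11R alone is filled.

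Each hairpin was then compared with scramble on its own. These comparisons share the scramble libraries, so likeness between them is not independent evidence. With shRNA1, *TJP3*, *TJP1* and *F11R* fell, which are 3 of 9 genes called lower, beside 7.19% of all tested genes called lower, 12.8% called higher and 20.0% in either direction. *TJP3* changed by −0.33 (SE 0.034, adjusted p = 0.00173) and *F11R* by −0.19 (SE 0.032, adjusted p = 0.00748), and both stayed under the threshold in every alternative fit. *TJP1* changed by −0.20 (SE 0.051, adjusted p = 0.0323). Its call was lost without any one of the scramble or shRNA1 replicates, with adjusted p-values of 0.0807, 0.108 and 0.0512 without scramble replicates 1, 2 and 3 and of 0.0762, 0.0871 and 0.106 without shRNA1 replicates 1, 2 and 3.

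With shRNA2, *TJP3*, *CGN* and *CLDN4* fell, again 3 of 9 genes called lower, beside 11.4% of all tested genes called lower and 27.4% in either direction. *TJP3* changed by −0.30 (SE 0.034, adjusted p = 0.00112) and *CGN* by −0.28 (SE 0.058, adjusted p = 0.0108), and both stayed under the threshold in every alternative fit. *CLDN4* changed by −0.15 (SE 0.043, adjusted p = 0.0379). Its call was lost without scramble replicate 1, 2 or 3 (adjusted p = 0.107, 0.076 and 0.0938), shRNA1 replicate 1 (0.0614), or shRNA2 replicate 2 or 3 (0.0501 and 0.0625), and without shRNA2 replicate 2 the log2 fold change was −0.10. *TJP1* at −0.11 (adjusted p = 0.146) and *F11R* at −0.04 (adjusted p = 0.328) did not pass, but without shRNA2 replicate 2 they were at −0.16 (adjusted p = 0.0381) and −0.08 (adjusted p = 0.042).

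A call with one hairpin and not the other does not show that the hairpins differ, so their difference was tested directly. *F11R* was higher with shRNA2 than with shRNA1 by 0.14 (SE 0.032, 95% interval 0.07 to 0.21, adjusted p = 0.0366), the only one of 9 genes called, beside 7.02% of all tested genes in either direction, 1.97% higher and 5.05% lower with shRNA2. That call was lost without any scramble replicate (adjusted p = 0.058, 0.0634 and 0.0656), any shRNA1 replicate (0.11, 0.125 and 0.0813) or shRNA2 replicate 1 (0.079). For *CGN* the difference was −0.17 (95% interval −0.31 to −0.04, adjusted p = 0.126), and for *TJP1* it was 0.09 (95% interval −0.03 to 0.20, adjusted p = 0.391). For *TJP3* it was 0.03 (95% interval −0.05 to 0.11, adjusted p = 0.639).

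Splice forms of the 9 genes were described from their 25 RefSeq accessions. Of 14 that could be tested, 0 were called by limma, beside 4.29% of 19780 accessions. Of these 14, 5 had an unadjusted p under 0.05 and 10 had a negative log2 fold change, counts whose shares over all accessions were not determined. *CLDN1*, *CLDN4* and *CGN* have 1 accession each, so their entries repeat the level of the gene. For *F11R*, 1 accession made up 100% of the gene in scramble. The main form of *OCLN*, 85% of the gene in scramble, did not fall (log2 fold change 0.01, adjusted p = 0.982). A lesser *OCLN* form had a mean of 0.37 FPKM in scramble and 0.128 with knockdown, and was too low to test. The main form of *CLDN7*, 72% of the gene in scramble, was at 0.07 (adjusted p = 0.85). The entries of *TJP3* begin at separate starts. The upstream one, NM_001267560, had 3.43, 3.91 and 3.56 FPKM in scramble, 2.11, 2.87 and 1.67 with shRNA1, and 2.17, 2.97 and 3.05 with shRNA2. Each knockdown library was below scramble for this form (log2 fold change −0.43, adjusted p = 0.143). The downstream form NM_001267561, whose start region is printed above, had 1.49, 0.891 and 1.15 FPKM in scramble, 1.45, 0.696 and 2.09 with shRNA1, and 1.64, 0.798 and 0.571 with shRNA2. Its groups overlapped (log2 fold change −0.02, adjusted p = 0.984), and its values scattered more between replicates than the sum over both forms did.

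*TJP1* has 9 accessions, of which NM_001355013 made up 49.3% of the level in scramble, NM_001355015 29.5% and NM_175610 15.6%. NM_001355013 had 17.7, 17.8 and 17.3 FPKM in scramble, 16.0, 13.6 and 14.4 with shRNA1, and 17.2, 14.9 and 14.5 with shRNA2. It was below scramble in each knockdown library (log2 fold change −0.21, adjusted p = 0.117). NM_175610 was at −0.43 (adjusted p = 0.111) with groups that overlapped, and NM_001355015 was at −0.08 (adjusted p = 0.735). A form that made up 3.04% of the level in scramble was higher with knockdown, at 0.54 (adjusted p = 0.456). For *CLDN12* the division between forms varied between the hairpins: NM_012129 made up 78.5% of the gene in scramble, 89.5% with shRNA1 and 63.6% with shRNA2, whereas NM_001185073 made up 11.4%, 4.53% and 30.6%. With shRNA1 the latter form had 1.67, 0.00156 and 0.00237 FPKM, so nearly all of it came from replicate 1. It had 2.02, 1.77 and 0.878 FPKM in scramble and 2.87, 5.83 and 3.36 with shRNA2. The division between forms was not tested between the hairpins, and Cufflinks estimates it from reads that the forms share.

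To place these genes among their partners, 65 other genes of the tight junction and of cell polarity were examined by role, of which 38 could be tested. Of these, 3 fell and 3 rose with knockdown, beside the shares of 7.23% lower and 14.4% higher among all tested genes, and 22 of 38 had a negative log2 fold change. Of 16 other claudins 4 could be tested, and 1 rose. Of 10 other cytoplasmic scaffolds 7 could be tested, 1 fell and 6 had a negative log2 fold change. Of 12 polarity genes all could be tested, 1 fell and 2 rose. Of 11 transcriptional regulators of junction genes 5 could be tested, and 1 fell. None was called among 2 MARVEL or tricellular membrane proteins, 1 immunoglobulin-like membrane protein and 7 signaling, trafficking or transcription partners that could be tested.

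*MAGI1*, a scaffold with PDZ domains, fell from 2.00 ± 0.0747 FPKM in scramble to 1.37 with shRNA1 and 1.61 with shRNA2 (log2 fold change −0.27, SE 0.066, adjusted p = 0.0216). *PARD3B*, a relative of the polarity protein PAR3, was at 1.28 ± 0.0751, 0.983 and 0.859 FPKM (−0.25, SE 0.067, adjusted p = 0.0307). Its knockdown mean of 0.921 FPKM was under the filter of 1 FPKM. It was thus tested only because of its scramble level, which favors finding a fall. *KLF5*, a zinc finger factor of epithelial cells, was at 12.6 ± 0.0986, 11.6 and 11.4 FPKM (−0.12, SE 0.025, adjusted p = 0.0107). These 3 genes were the falls of the list.

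Of the rises, *PARD6A*, an adaptor of the PAR complex, went from 9.70 ± 0.163 FPKM in scramble to 10.8 with shRNA1 and 11.4 with shRNA2 (log2 fold change 0.18, SE 0.037, adjusted p = 0.0122). *CLDN11*, the claudin of myelin and of Sertoli cells, went from 8.03 ± 0.327 to 9.27 and 9.09 FPKM (0.17, SE 0.036, adjusted p = 0.0108). *CDC42*, a small GTPase that acts with the PAR complex, went from 26.3 ± 0.478 to 28.2 and 29 FPKM (0.11, SE 0.034, adjusted p = 0.0398). For each of these 6 genes the knockdown and scramble libraries did not overlap, as held for 25.9% of all tested genes. The 6 were named because they were called in the same comparison, so this adds no separate support.

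**Figure D3:**
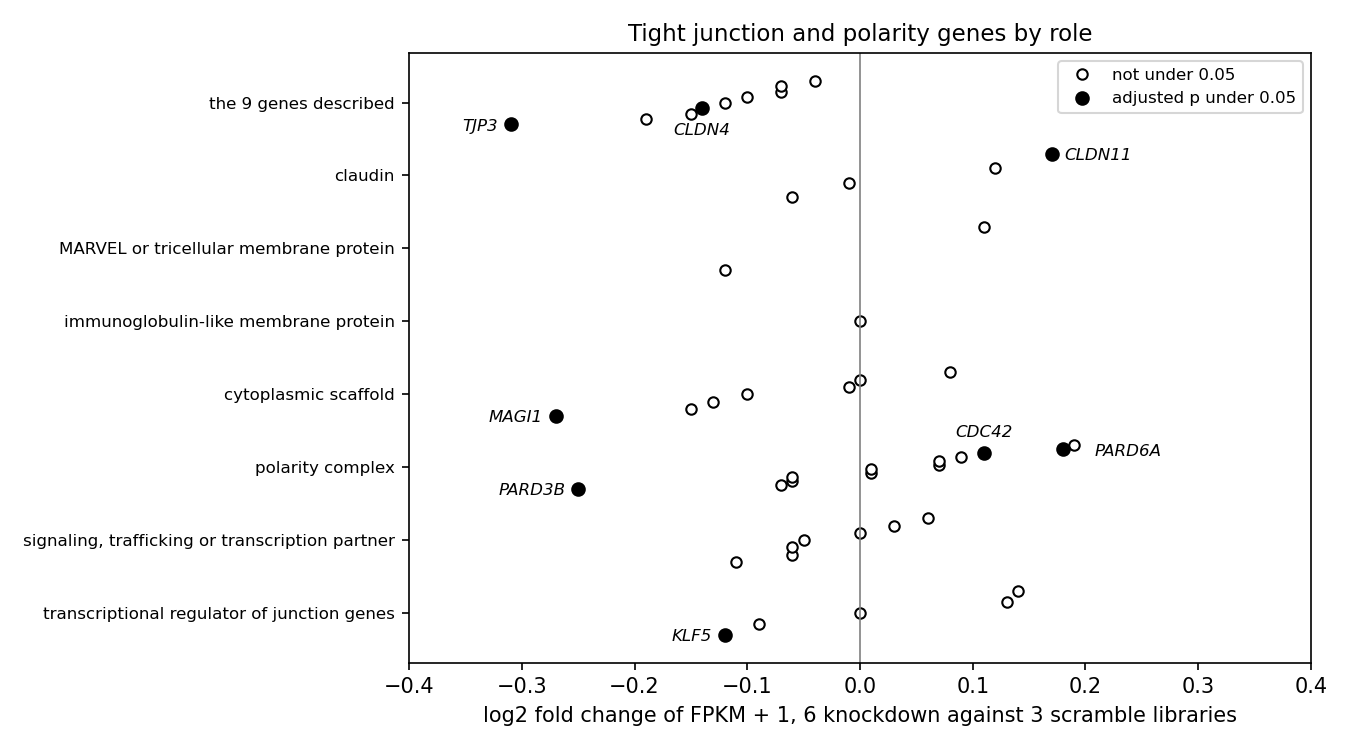
Log2 fold change of FPKM + 1 in knockdown against scramble for the 9 tight junction genes (top row) and 38 other tested genes by role, each gene a point, filled where the adjusted p was under 0.05 by limma. All 9 points of the top row lie left of 0, while the polarity genes lie on both sides.

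Long transcripts were lower with knockdown across the transcriptome. Over 12295 tested genes with a known length (98.3%), the Spearman rho between transcript length and log2 fold change was −0.435, a description across genes, which are not independent replicates. The median log2 fold change ran from 0.110 to −0.102 from the shortest to the longest of 10 length classes of equal size. *TJP1* (7332 bases), *CGN* (5091) and *F11R* (4835) were longer than the median of 2643 bases, as were *CLDN1* (3481), *CLDN12* (3384) and *TJP3* (3267), and *OCLN* (2174), *CLDN4* (1831) and *CLDN7* (1319) were shorter.

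With each library's trend on length removed, *TJP3* was at −0.32 (adjusted p = 0.000951) and *CLDN4* at −0.21 (adjusted p = 0.00484), so both calls were kept. *TJP1* moved to −0.06 (adjusted p = 0.226), *CLDN7* to −0.17 (adjusted p = 0.101) and *F11R* to −0.08 (adjusted p = 0.271). All 9 log2 fold changes stayed negative, with a median of −0.15 beside 0.00 over all tested genes.

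**Figure D4:**
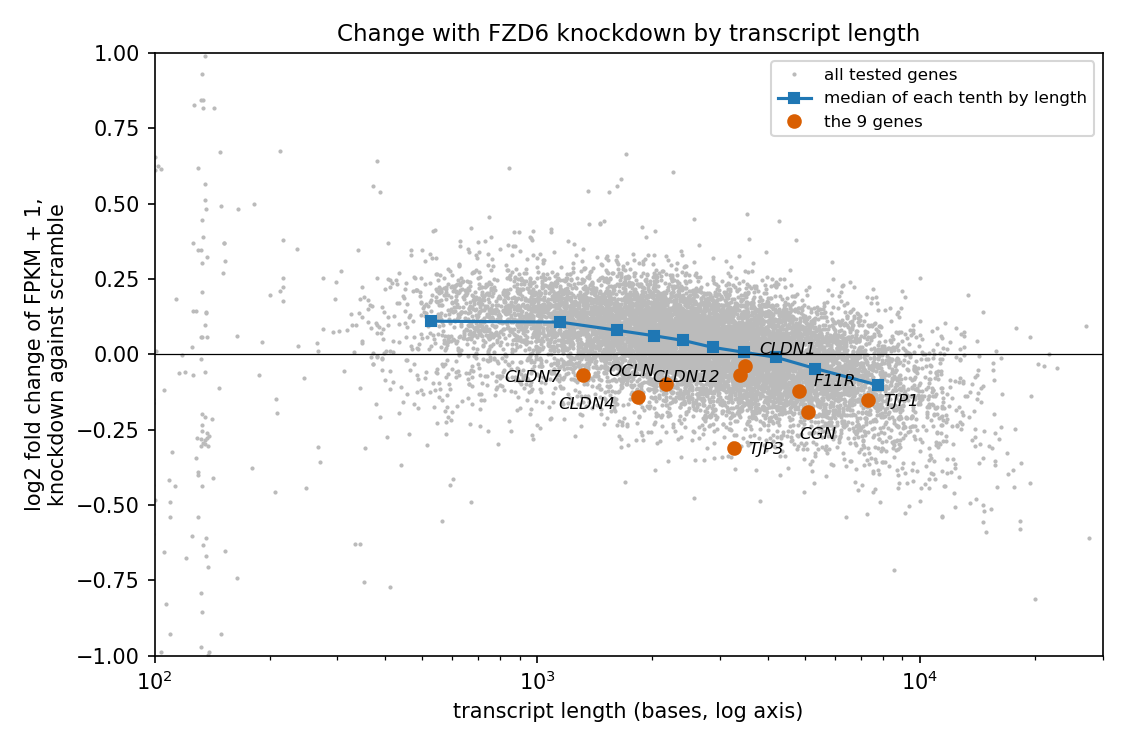
Log2 fold change of FPKM + 1 in knockdown against scramble by transcript length (log axis, in bases) for all tested genes (grey), the median of each of 10 length classes (blue squares) and the 9 tight junction genes (orange), with 345 genes outside the axes. The medians fall from 0.110 to −0.102, and each of the 9 genes lies below the line of medians.

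For each of the 9 genes, the tested gene with the most similar pattern over the 9 libraries was found by Pearson's r of log2(FPKM + 1), a description in which the points share 3 groups and all 12508 other genes were candidates. *TJP3* was most like *ATXN2* (r = 0.996), *TJP1* most like *SPEN* (0.992) and *F11R* most like *CTTNBP2NL* (0.977). *CLDN12* was most like *ZMYM4* (0.971), *CGN* most like *ZNF512B* (0.971) and *CLDN4* most like *MBD6* (0.970). *CLDN1* with *PCDHGB2* (0.953), *OCLN* with *ZSWIM6* (0.951) and *CLDN7* with *PRODH* (0.936) had the lowest r. None of the nearest genes was itself one of the 9.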

How the data were processed

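RNA-seq of 9 DU145 libraries was analyzed, 3 expressing the scrambled shRNA and 3 expressing each *FZD6* shRNA. Per the study's methods, the authors made stranded mRNA libraries and used STAR for mapping and Cufflinks for FPKM, tools whose versions are not given in the sources used here. The deposited tables give FPKM, already scaled for depth and length, for 83497 entries of RefSeq transcripts at hg38 loci, although the methods name mm10. Row order differs between the tables, so entries were joined by accession and locus. Accessions were paired with genes through RefSeq (GRCh38.p14), 72645 of 73240 matching, and FPKM were summed by gene. Genes with any entry of a Cufflinks status other than OK, 42 in number, were dropped.

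The tables hold no counts, so log2(FPKM + 1) of genes averaging 1 FPKM or more was fitted with limma 3.58.1 (R 4.3.3, eBayes with trend). Calls were made at an adjusted p under 0.05 (Benjamini-Hochberg). Knockdown was compared with scramble in a model with 2 arms, and each hairpin in a model with 3 groups. This gave 2703 of 12509 genes called in knockdown against scramble. The fits were tested on simulated data. One marker list is not reported here. Fragments were estimated from the Cufflinks confidence bounds, with transcript lengths from GENCODE v29, and 3 libraries per group limit the precision.

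The genes, lists and tests were chosen with earlier results of these data known. All 9 tight junction genes are named whatever their values, and of 65 other genes those called, up to 5 rises and 5 falls. The alternatives tried were no filter or one of 5 FPKM, a pseudocount of 0.1 or 0.01, median centring, quantile normalization, removal of each library's length trend (lowess, span 0.3), the replicate number as a block, eBayes without trend, primary chromosomes only, protein-coding accessions only, only the 6 libraries compared and leaving out each library. For RefSeq accessions, leaving out each library and the block were chosen after seeing the data. Tables and plots were made in Python 3.11.15 (numpy 2.4.6, pandas 2.3.3, matplotlib 3.10.9).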

Additional observations from a re-analysis of the deposited data

Results flagged for a closer look

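One result was set apart, because the effects of the hairpins against scramble differed by a test of the difference itself. The log2 level of *F11R* was higher with shRNA2 than with shRNA1 by 0.14 (adjusted p = 0.0366, limma), with shRNA1 libraries at 30.2 to 31.2 FPKM and shRNA2 libraries at 32.7 to 35.5 FPKM, higher in 3 of 3 libraries. Its adjusted p ran from 0.00645 to 0.125 over 22 alternatives, 12 of which were under the threshold. Over 15 named tight junction and polarity genes, no library among the 6 knockdown libraries stood far from the others.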

How the results depend on the processing

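Of the 4 comparisons, knockdown against scramble called 2 of the 9 genes, and between 1 and 5 with any one library left out: 1 without scramble replicate 1, 2 or 3 and 5 without shRNA2 replicate 2, while all genes called ran from 1231 (without scramble replicate 2) to 3359 (without shRNA2 replicate 2). shRNA1 against scramble called 3, between 2 and 5 leaving out libraries, 5 with the length trend removed and 5 with only the 6 libraries compared, *OCLN* and *CLDN4* being the additions in both. shRNA2 against scramble called 3, between 2 and 4 leaving out libraries, and 1 under the filter of 5 FPKM, which left 5 of the 9 genes to test. shRNA2 against shRNA1 called 1 (*F11R*), and 0 with no filter (adjusted p = 0.05), with only the 6 libraries (0.108), and with a replicate block (0.062), between 0 and 1 leaving out libraries. RefSeq entries called 0, and 1 without shRNA2 replicate 1 (*TJP1* NM_001355013, adjusted p = 0.0438), so between 0 and 1.

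Same-numbered libraries did not deviate together from their group means (r from −0.071 to 0.111), so the numbers are not taken as pairs, and the block was tried only as an alternative. With the replicate block *TJP1* in knockdown against scramble was called (adjusted p = 0.0415), as was *CLDN4* with shRNA1 (adjusted p = 0.0266). *TJP1* in knockdown against scramble also passed under a filter of 5 FPKM, median centring, quantile normalization and protein-coding accessions only.

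Signs turned only for differences near 0. *CLDN7* with shRNA2 against scramble ran from −0.07 to 0.01 leaving out libraries, and was 0.01 without scramble replicate 2 and 0.00 without shRNA2 replicate 2. *CLDN4* between the hairpins ran from −0.04 to 0.03 leaving out libraries, and was 0.00 with quantile normalization, with the length trend removed and with the replicate block and length trend removed, 0.02 without shRNA1 replicate 3 and 0.03 without shRNA2 replicate 2. *CLDN12* between the hairpins ran from −0.07 to 0.03 leaving out libraries, and was 0.00 with quantile normalization, 0.02 without shRNA1 replicate 2, 0.01 without shRNA2 replicate 1 and 0.03 without shRNA2 replicate 3. The cause of these shifts was not tested.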
